A study of Mus musculus with 4 samples.

Results

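Guanylate-binding proteins (GBPs) and immunity-related GTPases (IRGs) are GTP-hydrolysing proteins that mammalian cells make in response to interferon. The transcripts of 10 mouse genes of these families were examined in cultured astrocytes: the 6 GBP genes Gbp2, Gbp3, Gbp5, Gbp6, Gbp7 and Gbp9, and the 4 IRG genes Irgm1, Irgm2, Igtp and Iigp1. The genes were selected on their measured difference between the libraries compared here, so that difference is given as a description and was not tested for them. All 10 were found by exact gene symbol among the 25393 genes with a value, and all 10 passed the filter on low values, a mean over the libraries of 1 normalized count or more, as 22094 genes did.

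The RNA came from untreated primary astrocytes of the cortex and hippocampus of C57BL/6 mice, either wild type (WT) or constitutively lacking Tet1 (tet1-/-, labelled KO). Tet1 is an enzyme that oxidises 5-methylcytosine to 5-hydroxymethylcytosine, and the comparison asks which transcripts differ in astrocytes when it is deleted. Both genotypes were handled in the same way: 2 pups of postnatal day 1 gave each culture, which grew for about 7 days in a coated flask, was shaken at 260 rpm and was collected 24 hours later. There were 2 libraries of each genotype, named WT 1, WT 2, KO 1 and KO 2 below. The labels do not say whether the libraries of a genotype came from separate litters or days, so the p-values given for other genes measure only the spread between these libraries, which may be technical. The deletion was present in the whole animal and not only in astrocytes.

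GBPs are large GTPases of the dynamin superfamily, which assemble on the membranes of vacuoles that hold parasites or bacteria and on bacterial surfaces, and which promote inflammasome activation. IRGs work at the same vacuoles and fall into 2 kinds. Effector IRGs such as Iigp1 load onto the vacuole membrane and break it, while the regulators Irgm1, Irgm2 and Igtp (also called Irgm3) sit on the membranes of the cell itself and keep the effectors inactive there. Transcription of both families is low in resting cells and is driven in the interferon response through interferon-stimulated response elements (ISREs), which interferon regulatory factors (IRFs) bind, and gamma-activated sites (GAS) in promoters. In the brain, astrocytes and microglia both respond to interferon.

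By the positions in the table, on mm10, 4 of the genes form a cluster on the plus strand of chromosome 3: Gbp5 (ENSMUSG00000105504) at chr3:142493978-142522344, Gbp7 (ENSMUSG00000040253) at chr3:142530342-142550149, Gbp3 (ENSMUSG00000028268) at chr3:142560026-142573209 and Gbp2 (ENSMUSG00000028270) at chr3:142620602-142638008. On the minus strand of chromosome 5 lie Gbp9 (ENSMUSG00000029298) at chr5:105077630-105139539 and Gbp6 (ENSMUSG00000104713) at chr5:105270702-105293698. Chromosome 11 holds Irgm1 (ENSMUSG00000046879) at chr11:48861968-48871683 on the minus strand and, in another region, Igtp (ENSMUSG00000078853) at chr11:58199556-58207591 and Irgm2 (ENSMUSG00000069874) at chr11:58199618-58222782 on the plus strand.

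The promoters are shown first for those of these genes that had a promoter window, because each of those held an ISRE core. RefSeq promoter windows on GRCm38.p6, each running from 250 bases before to 50 bases after a transcription start, were found for 7 of the 10 genes, all but Gbp6, Gbp9 and Iigp1. The letters GAAANNGAAA, an ISRE core searched on both strands, stood in a window of all 7 genes and in 3.44% of all 32851 windows. In the stretches below, read from 5′ to 3′ on the strand of the gene, capitals mark the ISRE cores, which read in reverse complement in the 4 Gbp genes.
Gbp5: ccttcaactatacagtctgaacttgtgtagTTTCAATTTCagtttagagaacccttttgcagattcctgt
Gbp7: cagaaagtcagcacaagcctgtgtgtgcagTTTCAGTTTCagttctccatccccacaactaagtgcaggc
Gbp3: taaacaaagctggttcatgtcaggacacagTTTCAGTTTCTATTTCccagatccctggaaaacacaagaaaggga
Gbp2: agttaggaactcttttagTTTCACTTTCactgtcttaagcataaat
Irgm1: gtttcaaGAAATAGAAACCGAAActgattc
Igtp: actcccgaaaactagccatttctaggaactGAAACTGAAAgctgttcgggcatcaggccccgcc
Irgm2: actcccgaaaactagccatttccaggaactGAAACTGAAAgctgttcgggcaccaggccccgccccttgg

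These stretches lie at chr3:142496739-142496808 (Gbp5), chr3:142530253-142530322 (Gbp7), chr3:142559969-142560043 (Gbp3) and chr3:142620586-142620631 (Gbp2), all on the plus strand. On chromosome 11 they lie at chr11:48871428-48871457 on the minus strand (Irgm1), and on the plus strand at chr11:58199492-58199555 (Igtp) and chr11:58214883-58214952 (Irgm2). By the GENCODE M21 gene models the Gbp7 and Igtp stretches were upstream of the gene, those of Gbp5 and Irgm2 were intronic to a longer form of their own gene, and those of Gbp3, Gbp2 and Irgm1 held 18, 30 and 30 bases of an annotated exon. With the last base before the RefSeq start counted as -1, the core began at -165 in Gbp5, -53 in Gbp7, -59 in Gbp2, -34 in Igtp and -64 in Irgm2. Gbp3 and Irgm1 each held a pair of overlapping cores, at -45 and -39 in Gbp3 and at -30 and -24 in Irgm1. A second RefSeq window of Gbp3 held none.

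The GAS letters TTCNNNGAA, which read the same on both strands, were found in the windows of Gbp5, Gbp7, Igtp and Irgm2, against 8.30% of all windows, and both motifs together stood in 0.454% of all windows. In Igtp and Irgm2 the GAS began at -45 and -75, and ended 2 bases before the ISRE core in both, in the arrangement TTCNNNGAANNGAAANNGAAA. Searched on both strands, that arrangement occurred in 5 of the 32851 windows. The 5 genes were Igtp, Irgm2, the effector IRG genes Tgtp1 and Tgtp2, and Gm12185, all on chromosome 11. In each the libraries labelled KO lay below both WT libraries, as held for 25.4% of all genes tested. Nothing is read from this, since Igtp and Irgm2 were selected on this contrast. Gm12185 had few reads, with normalized counts of 1.07 and 7.36 in WT and 0 in both KO libraries. A PU.1-IRF composite element, GGAANNGAAA on either strand, was found in Gbp5, Igtp and Irgm2 and in 2.72% of all windows; in Igtp and Irgm2 it overlapped both the GAS and the ISRE core. The arrangement of GAS and ISRE was searched for after the windows had been seen. A match to these letters is a description of the sequence and does not show that a factor is bound.

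Values below are normalized counts, that is, reads on a gene divided by a size factor of the library, in which 1 read is worth 0.901 to 1.07. From 18749610 to 22673555 reads per library fell on genes. Tet1 itself stood at 266 and 121 in WT 1 and WT 2 and at 173 and 463 in KO 1 and KO 2, so its level did not separate the groups (log2 fold change 0.66, SE 0.65, limma adjusted p = 0.691), and the libraries are called by their labels. The 4 Y-linked transcripts Ddx3y, Eif2s3y, Kdm5d and Uty summed to 3765 and 1909 in WT and to 0 and 830 in KO, while Xist, which is made from the inactive X chromosome, was at 8.54 and 0.92 in WT and 2896 and 13367 in KO. The sex composition of the cultures and the genotype therefore cannot be told apart. Over all genes tested, limma called 0 at an adjusted p under 0.05 (0.0%), with 3032 at an unadjusted p under 0.05; 9.18% of genes were lower and 4.54% higher in KO at that unadjusted p. edgeR's quasi-likelihood test on the recovered reads also called 0, with 2733 unadjusted, and DESeq2 called 803 lower and 285 higher, which are 4.62% and 1.64% of the 17382 genes to which it gave an adjusted p.

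Each of the 10 genes was lower in both KO libraries than in both WT libraries. The same held for 25.4% of all genes tested, and 22.5% were higher in both KO libraries; nothing is read from the count of 10, since the genes were selected on this contrast. Their median log2 fold change, on the scale of normalized count + 1, was -3.96, against -0.07 over all genes tested. The median was -4.66 over the 6 GBP genes and -3.60 over the 4 IRG genes. In these bulk cultures, fewer cells of a type that express a gene and less RNA per cell cannot be told apart.

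Among the GBP genes of chromosome 3, Gbp2, whose prenylated protein is recruited to parasite vacuoles, reached 2499.9 and 2720.1 in WT against 310.4 and 208 in KO, all as normalized counts. Its WT replicates differed by 1.09-fold and its KO replicates by 1.49-fold. The WT mean was 10.1 times the KO mean (log2 fold change -3.35 ± 0.33, SE). Gbp3, its neighbour in the cluster, was at 3589 and 2501 in WT and at 199 and 193 in KO, a 15.5-fold difference of the means (-3.93 ± 0.32). These KO libraries differed by only 1.03-fold. Gbp5, a prenylated GBP known for promoting the NLRP3 inflammasome, was at 2897 and 1497 in WT and 32.1 and 62.2 in KO, so that KO held 2.15% of the WT mean (-5.51 ± 0.52). Gbp5 varied about 1.94-fold between replicates of either genotype, far less than between the genotypes.

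Gbp7 was the chromosome 3 gene with the widest spread. Its values were 1363 and 493 in WT and 32.1 and 243 in KO. KO 2 was 7.58 times KO 1, and WT 2 was 2.03 times KO 2, the smallest gap between the genotypes of any of the 10 genes. The log2 fold change of -3.19 ± 1.04 became -1.75 without KO 1 and -4.63 without KO 2. Of the 5612 stretches of 100 bases in its transcripts, 562 also stood in transcripts of the pseudogene Gm43802, which overlaps it on the same strand, or of Gbp3.

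Gbp6 and Gbp9 belong to the GBP cluster of chromosome 5. Gbp6 was at 1749.8 and 616 in WT and at 16.1 and 35.2 in KO, a 46.2-fold difference of the means (-5.39 ± 0.68), with WT 1 at 2.84 times WT 2. Gbp9 was at 1039 and 745 in WT, 1.07 in KO 1 and 74.8 in KO 2, which are 1 and 83 reads in the KO libraries. The KO replicates of Gbp9 thus lay 69.9-fold apart, and its log2 fold change of -6.14 ± 1.64 ran from -3.54 without KO 1 to -8.73 without KO 2. For Gbp6, 64.5% of the 100-base stretches of its transcripts were shared with other genes of the cluster (Gm43302, Gbp10, Gbp11, Gbp8, Gbp4 and Gbp9), and Gbp9 overlaps Gbp8 and Gbp4 on its own strand, so the reads of these neighbours may have been divided among them in a way that depends on the authors' counting.

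Among the regulatory IRGs, Irgm1, which also acts in autophagy, was at 1909.9 and 1707 in WT and 477 and 467 in KO. KO kept 26.1% of the WT mean (-1.93 ± 0.28), and replicates differed by at most 1.12-fold. Irgm2 was at 2482 and 2092 in WT and at 209 and 97.3 in KO (-3.99 ± 0.45, 14.9-fold). Igtp was at 2163 and 2178 in WT and 208 and 259.6 in KO (-3.22 ± 0.30, 9.29-fold), with the closest agreement between WT replicates of all 10 genes. Igtp and Irgm2 overlap on the plus strand of chromosome 11 and shared 5.16% and 3.01% of their 100-base stretches with each other.

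Iigp1 (ENSMUSG00000054072, at chr18:60376029-60392627 on the plus strand), the effector that is loaded onto parasite vacuoles, was at 817 and 703 in WT and 6.42 and 20.7 in KO. KO held 6 and 23 reads, or 1.79% of the WT mean (56.0-fold, -5.90 ± 0.64). Without KO 1 the log2 fold change was -5.13 and without KO 2 it was -6.68. The effector was thus lower relative to WT than each of the 3 regulators, in both KO libraries, a difference that was not tested. No 100-base stretch of Iigp1, Irgm1 or Gbp2 was found in transcripts of another gene.

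**Figure D1:**
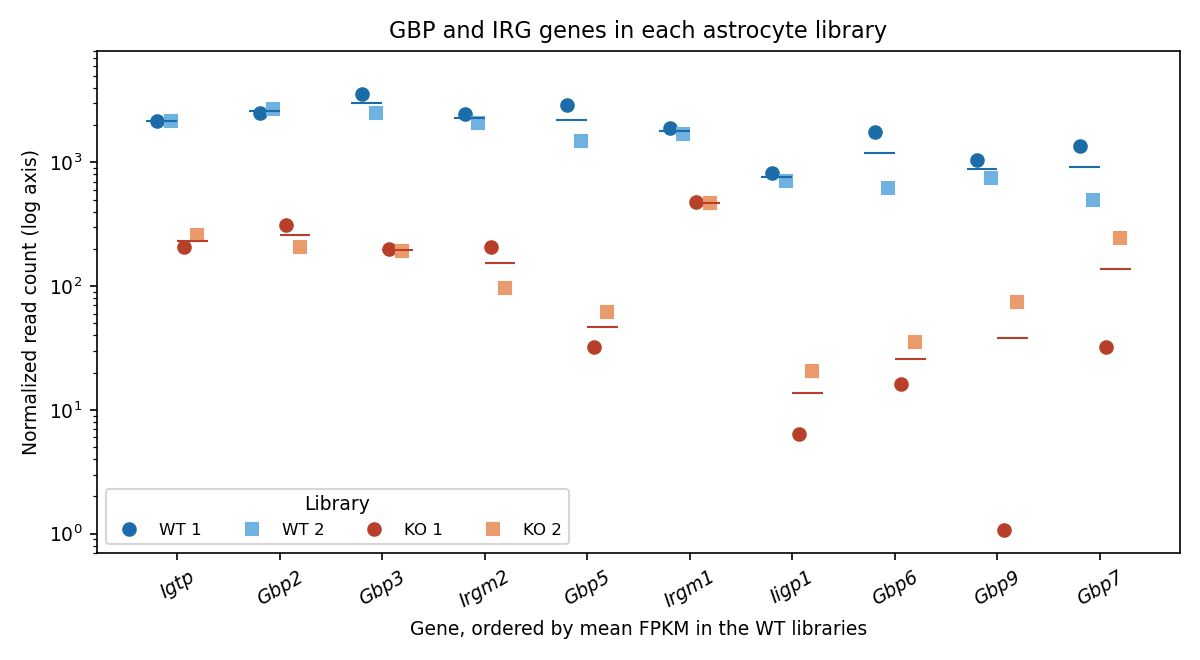
Normalized read counts (log axis) of the 10 GBP and IRG genes in each library; points are libraries and short lines are the mean of each genotype. For every gene the KO points lie below the WT points, the gap is smallest for Gbp7 (493 in WT 2, 243 in KO 2), and the widest pair of replicates is that of Gbp9 in KO (1.07 and 74.8).

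Levels of different genes were compared per length, in FPKM, the recovered reads of a gene scaled to its length and to the reads of the library. In WT, Igtp (52.6 ± 1.27, SD, n = 2), Gbp2 (50.8 ± 1.55) and Gbp3 (45.8 ± 12.9) were the most abundant, and their ranges overlapped. Irgm2 followed at 30.4 ± 4.55, below these 3 genes in each library. Gbp5 (16.3 ± 7.78) and Irgm1 (15.3 ± 1.66) overlapped. Lower still, and without overlap between Irgm1 and Iigp1, came Iigp1 (11.95 ± 1.61), Gbp6 (9.83 ± 6.88), Gbp9 (8.47 ± 2.22) and Gbp7 (8.17 ± 5.60), each overlapping the next. Igtp and Irgm2 were thus more abundant in WT than the effector Iigp1, whose 2 libraries did not exceed 13.1.

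In KO the order of levels was partly different. Igtp (5.50 ± 1.22) and Gbp2 (4.83 ± 1.04) were again the highest, and Irgm1 (3.84 ± 0.19) came next, ahead of Gbp3 (2.84 ± 0.12) and Irgm2 (1.93 ± 0.88). Gbp7 was at 1.20 ± 1.34, and Gbp9 (0.363 ± 0.500), Gbp5 (0.341 ± 0.174), Iigp1 (0.211 ± 0.167) and Gbp6 (0.207 ± 0.121) were all under 1 in both libraries. Gbp5 moved from the fifth place in WT to the eighth in KO and Irgm1 from the sixth to the third. Summed over the 10 genes, the level was 279.9 and 219 FPKM in WT and 19.9 and 22.6 in KO, of which the 6 GBP genes made up 163 and 115 in WT and 8.93 and 10.6 in KO.

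Replicates of a genotype were not equal across the genes. Of the 10, 8 were higher in WT 1 than in WT 2, with Igtp and Gbp2 the exceptions, and 6 were higher in KO 2 than in KO 1. The GBP genes Gbp5, Gbp6 and Gbp7 showed the widest WT spread, from 1.94-fold to 2.84-fold. The 4 IRG genes, Iigp1 included, and Gbp2 stayed within 1.19-fold in WT.

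Most of the listed further GBP and IRG genes lay on the same side. The counts without overlap in this and the following paragraphs are to be read beside all genes tested, of which 25.4% were lower and 22.5% higher. Of 5 further GBP genes tested, 4 were lower in KO without overlap and were called by DESeq2 (median of the 5, -5.22). These 4, Gbp10, Gbp4, Gbp11 and Gbp8, share 100-base stretches with Gbp6, so they cannot be counted apart from it. Gbp10 was at 221 and 72.6 in WT and 3.21 and 1.80 in KO, Gbp4 at 136 and 89.2 against 0 and 7.21, and Gbp11 at 97.1 and 41.4 against 0 and 1.80. Gbp8, at 26.7 and 15.6 in WT, was at 0 in both KO libraries, which makes it at least 14.4-fold lower by a floor of 3 reads over the 2 libraries. Gbp2b, which lies between Gbp3 and Gbp2, was near the floor of 3 reads in every library (6.40 and 0 in WT, 0 and 0.90 in KO), so no difference was detectable at this depth.

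Of a list of 12 genes that holds further IRG genes and the giant GTPase gene Gvin1, 10 were lower without overlap and 1 was higher, with a median of -2.39. Some of those lower rest on few reads. Gm12250 held 12 and 6 reads in WT and 0 and 3 in KO. Gm5431, 9930111J21Rik1, 9930111J21Rik2 and Irgc1 held at most 7 reads in any library. DESeq2 called 5 lower and 0 higher, and limma and edgeR 0. The 5 were Ifi47 (241 and 349 in WT, 4.28 and 6.31 in KO), Gm4951 (599.6 and 353 against 1.07 and 9.01), F830016B08Rik (125 and 34.9 against 1.07 and 0.90), Tgtp1 (67.2 and 46.9 against 3.21 and 0.90) and Tgtp2 (23.5 and 55.2 against 0 and 2.70). Irgq, an IRG-related gene that is not interferon-induced, was the one that lay higher, at 1652 and 2024 in WT and 2386 and 2355 in KO (log2 fold change 0.37, limma adjusted p = 0.599). The promoter windows of Tgtp1, Tgtp2, Gbp2b, Gm12250 and 9930111J21Rik1 held an ISRE core, that is, 5 of the 9 genes of these 2 lists with a window, and that of Ifi47 did not.

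Genes with other roles in the pathway were less uniform. Among 15 genes of interferon receptors and signalling with a value, 9 were lower and 2 higher without overlap (median -1.05), and DESeq2 called 5 lower and 0 higher. Among these were Stat2 (2503 and 2725 in WT, 358 and 323 in KO), Irf9 (2211 and 2463 against 823 and 352), Irf1 (1331 and 1354 against 520.2 and 609) and Irf8 (85.4 and 171 against 17.1 and 3.61), which encode transcription factors of the interferon response. The interferon gamma receptor gene Ifngr1 was at 2003 and 2514 in WT and at 1122 and 967 in KO (DESeq2 adjusted p = 0.110), while Ifngr2 and the kinase gene Tyk2 overlapped between the genotypes. The ligand genes Ifng, Ifnb1 and Ifna4 had no value in the table.

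Of 9 genes of the inflammasome that GBPs act on, 7 were lower without overlap (median -1.83), and DESeq2 called Gsdmd, the pore-forming gasdermin D (116 and 111 in WT, 3.21 and 9.91 in KO), and Casp4, which senses cytosolic lipopolysaccharide (433 and 465 against 1.07 and 55.9). Nlrp3 was at 2.13 and 28.5 in WT and 0 and 6.31 in KO. Of 15 genes that conjugate ATG8 proteins or target IRGs and GBPs to vacuoles, 3 were lower and 3 higher without overlap (median 0.05), and Trim21 alone was called by DESeq2 (571 and 577 in WT, 186 and 121 in KO). Of 7 genes that prenylate and process CaaX proteins such as Gbp2 and Gbp5, 1 was lower and 2 were higher without overlap (median 0.15), and neither DESeq2, limma nor edgeR called any, with 0 at an unadjusted limma p under 0.05.

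The GBPs are relatives of dynamins and mitofusins, and 12 other dynamin-like GTPase genes were listed beside them. The median of these 12 was -0.15, with 5 lower and 1 higher without overlap. DESeq2 called the interferon-induced Mx1 (75.8 and 72.6 in WT, 5.35 and 1.80 in KO) and Mx2 (301 and 227 against 3.21 and 12.6), together with Dnm1, the dynamin of synaptic vesicle recycling, at 1149 and 1036 in WT and 19.3 and 43.3 in KO (log2 fold change -5.19 ± 0.51, DESeq2 adjusted p = 1.9e-16, limma adjusted p = 0.0777). The atlastin gene Atl3 was at 2976 and 2467 in WT and 3176 and 3297 in KO, and the genotypes overlapped for Dnm1l, a mitochondrial fission gene (2169 and 963 against 736 and 2315). Of 19 other interferon-induced genes, 17 were lower without overlap (median -4.02) and DESeq2 called 15 lower and 0 higher, among them the ubiquitin-like Isg15 (1944 and 2427 in WT, 55.7 and 61.3 in KO) and the immunoproteasome subunit Psmb8 (1302 and 1312 against 110.25 and 109.96).

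**Figure D2:**
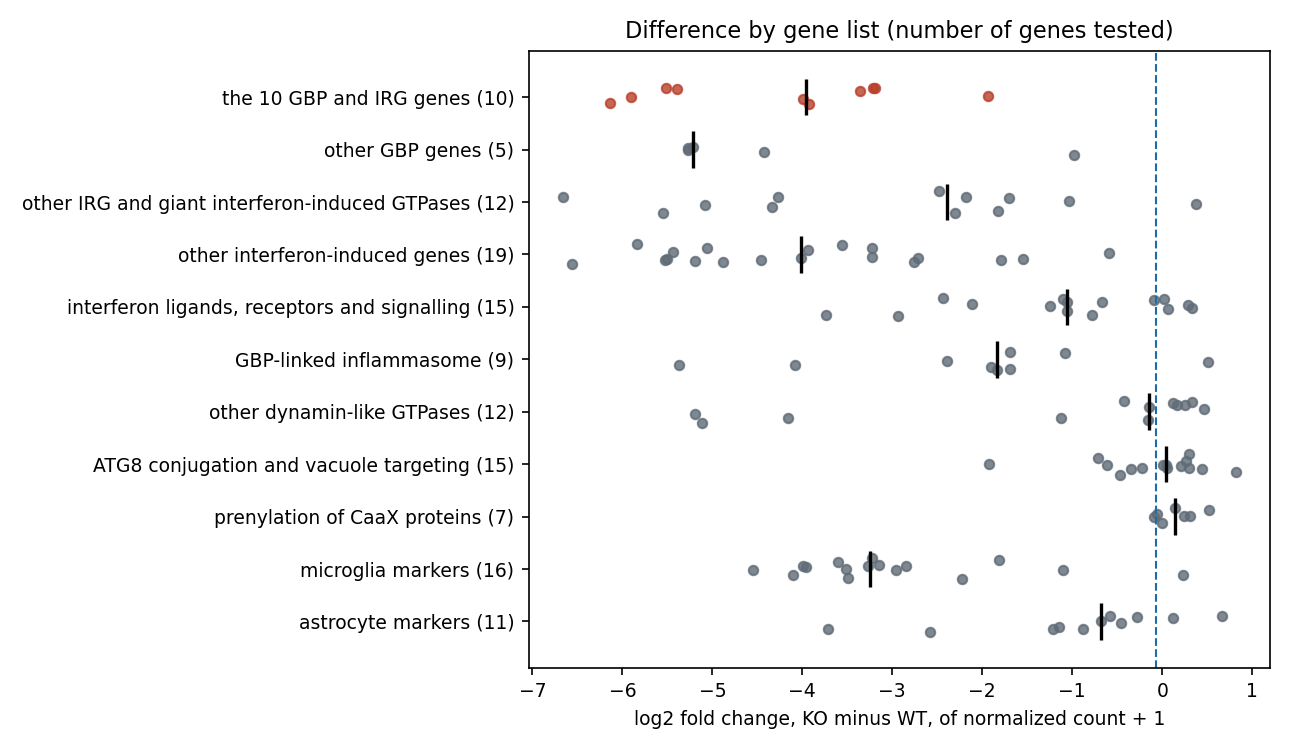
Log2 fold change (KO minus WT, of normalized count + 1) of each tested gene, by list, with the number of genes in parentheses; black bars are list medians and the dashed line is the median of all genes tested (-0.07). The 10 GBP and IRG genes (red, median -3.96), which were selected on this contrast, lie among the other interferon-induced genes (median -4.02). They lie outside the range of the genes for prenylation, and the microglia markers have a median of -3.25.

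Markers of other cell types differed between the libraries as well. Of 16 microglia markers with a value, 14 were lower in KO without overlap and 1 was higher (median -3.25), and DESeq2 called 11 lower and 0 higher; their summed level was 72.5 and 133 FPKM in WT and 29.4 and 29.9 in KO. Sall1, the 1 that was higher (2018 and 2033 in WT, 2512 and 2261 in KO), held most of the KO sum, and without it the sums were 53.4 and 114 in WT and 7.86 and 8.65 in KO. The defining microglia markers P2ry12 (6.40 and 4.60 in WT, 0 and 0.90 in KO) and Tmem119 (2.13 and 38.6 against 8.56 and 1.80) were near the floor in most libraries, while Cx3cr1 was at 112 and 349 in WT and 23.5 and 11.7 in KO. The part of microglia in the levels of the GBP and IRG genes was not tested.

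The microglia markers and the GBP and IRG genes had different orders within WT. Among the microglia markers, 15 of 16 were higher in WT 2 than in WT 1, whereas 8 of the 10 GBP and IRG genes were higher in WT 1. Of the 19 other interferon-induced genes, 9 were higher in WT 2. These counts compare WT 1 with WT 2 only, and the difference between the lists was not tested. On a log2 scale centred on the mean of each gene, the median of the 10 genes was 2.28 in WT 1, 1.80 in WT 2, -2.49 in KO 1 and -1.98 in KO 2, and that of the microglia markers was 0.94, 2.36, -1.56 and -1.54. The 19 other interferon-induced genes were at 2.02, 1.84, -2.66 and -1.78. Each of these profiles has 4 points that share libraries, so they are given as a description.

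Of the 11 astrocyte markers, 6 were lower in KO without overlap and 1 was higher (median -0.68), and DESeq2 called 0, as did limma and edgeR, with 3 lower at an unadjusted limma p under 0.05. Their sum was 1503 and 1448 FPKM in WT, 2587 in KO 1 and 387 in KO 2, and Gfap was at 58004 and 67297 in WT, 174853 in KO 1 and 9945 in KO 2. Without Gfap the sum was 816 and 683 FPKM in WT, 716 in KO 1 and 269.9 in KO 2, so that KO 1 lay within the WT range and KO 2 below it. The glutamate transporter genes Slc1a3 (40855 and 43257 in WT, 28836 and 18194 in KO) and Slc1a2 (11394 and 5793 against 3078 and 597) and the enzyme gene Aldh1l1 (4725 and 5999 against 4452 and 2490) were detected in all 4 libraries and lower in both KO libraries, while Gjb6, at 64.0 and 33.1 in WT, was at 11.8 in KO 1 and 0 in KO 2. Gja1, the 1 that was higher, was at 3557 and 5231 in WT and 7361 and 6344 in KO. Aldoc (9482 and 6648 in WT, 20909 and 1594 in KO) and S100b (79.0 and 34.9 against 185 and 17.1) overlapped between the genotypes, as did Gfap and Fgfr3. The part of the astrocyte markers in the levels of the GBP and IRG genes was not tested. Without KO 2 the median log2 fold change of the 10 genes was -4.27 and without KO 1 it was -3.80. Among other lists, T and NK cell markers had no value in the table for any of 8 genes. Lower without overlap were 0 of 5 neuron, 2 of 7 oligodendrocyte lineage, 1 of 5 endothelial and mural and 2 of 3 fibroblast markers tested, and 4 of the 5 neuron markers were higher. Over all genes tested, 25.4% were lower and 22.5% higher, and nothing is read from these small counts. Some rest on few reads: Dcx held 1 and 0 reads in WT and 7 and 5 in KO, Rbfox3 1 and 1 against 52 and 2, and Lum 4 and 3 against 0 and 3.

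**Figure D3:**
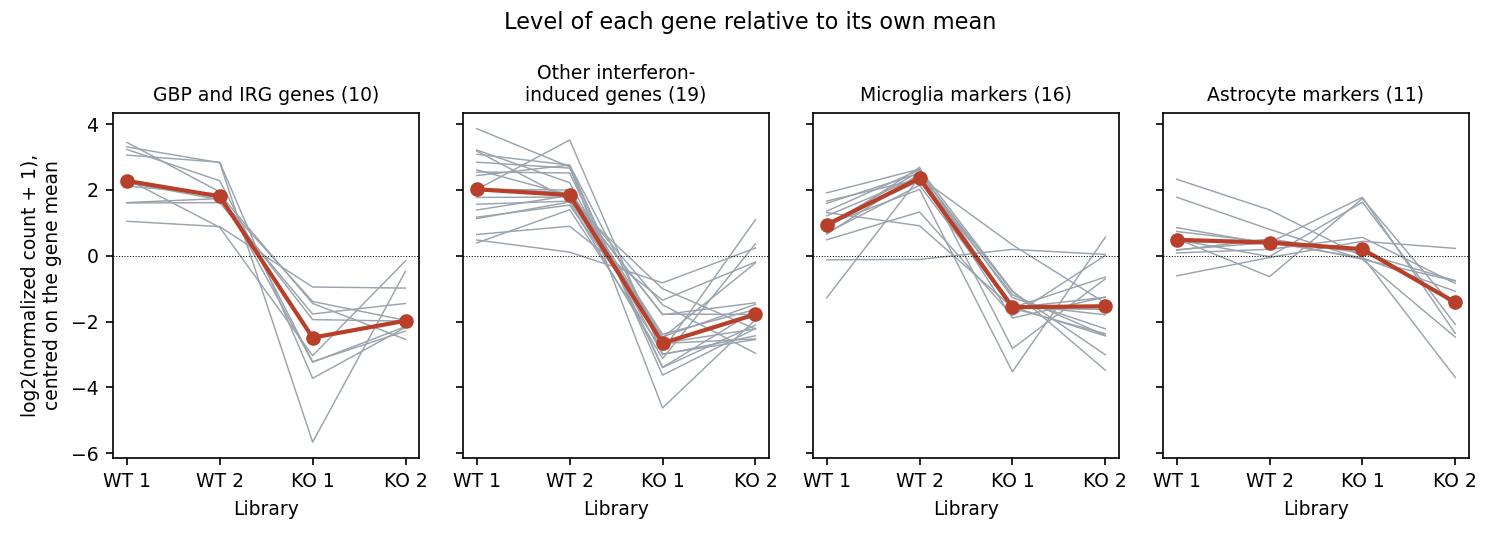
Level of each gene in the 4 libraries as log2(normalized count + 1) centred on the mean of that gene (grey lines), with the median of the list (red), for the 10 GBP and IRG genes, 19 other interferon-induced genes, 16 microglia markers and 11 astrocyte markers. The microglia median peaks in WT 2 (2.36 against 0.94 in WT 1), and the astrocyte median is lowest in KO 2 (-1.42).

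The genes whose profile over the 4 libraries was most like the mean of the 10 were sought among 12858 other genes with a mean of at least 50, by the distance between centred log2 values. The nearest was Cp, which encodes the ferroxidase ceruloplasmin, with normalized counts of 108480 and 57043 in WT against 2946 and 5964 in KO (distance 0.274). It was followed by the sodium channel gene Scn7a, Oasl1, Helz2, Trim30a, Oas1b, Xaf1, Lgals9, Gsdmd and Tmem59l, with distances up to 0.454. Of these 10 genes, 2 (Xaf1 and Gsdmd) were on the lists above, which do not hold every interferon-induced gene. The likeness rests on 4 libraries and on 1 large difference between the genotypes.

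The genes around the GBP and IRG genes are given by region, and nothing is read from the small counts of a single region. Within 500 kb on either side of the 4 regions that hold 9 of the 10 genes, 29 other protein-coding genes were tested, of which 6 were lower and 8 higher in KO without overlap, while 15 overlapped (median log2 fold change -0.05); over all genes tested, 25.4% were lower and 22.5% higher without overlap. In the chromosome 5 region, 3 of 5 such neighbours were lower and none was higher (median -0.57, from -1.51 to -0.22). The value of -1.51 was that of Gm43302, which shares 100-base stretches with Gbp6, so this neighbour cannot be counted apart from the GBP genes. Around Irgm1 3 of 10 were lower (median -0.25), while 0 of 5 around the chromosome 3 cluster (median -0.05) and 0 of 9 around Igtp and Irgm2 (median 0.35) were. Around the chromosome 3 cluster, Kyat3 (181 and 194 in WT, 189 and 96.4 in KO) and Gtf2b (542 and 634 against 780 and 518) overlapped, and Pdlim5 was higher, at 4589 and 3749 in WT and 8999 and 15048 in KO (log2 fold change 1.49 ± 0.37, DESeq2 adjusted p = 0.029, limma adjusted p = 0.227). Mrpl22, a neighbour of Igtp and Irgm2, was at 409.7 and 479 in WT and 634 and 552 in KO (limma adjusted p = 0.599).

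The 3 protein-coding neighbours that lay more than 1 lower on the log2 scale had few reads. Gm43302, which overlaps Gbp6, was at 3.20 and 0.92 in WT, Gm12185, the gene that shares the GAS and ISRE arrangement, at 1.07 and 7.36, and Olfr56 at 1.07 and 3.68, and all 3 were at 0 in both KO libraries. Among neighbours that do not code for protein, the antisense gene Gm16170 next to Irgm1 was at 38.4 and 23.0 in WT and 1.07 and 22.5 in KO (log2 fold change -2.14, limma adjusted p = 0.510), and Gm8258 (-2.40) and C230066G23Rik (-1.06) had few reads. The windows around the genes were chosen after the values had been seen, and no test of the neighbourhood was made.

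**Figure D4:**
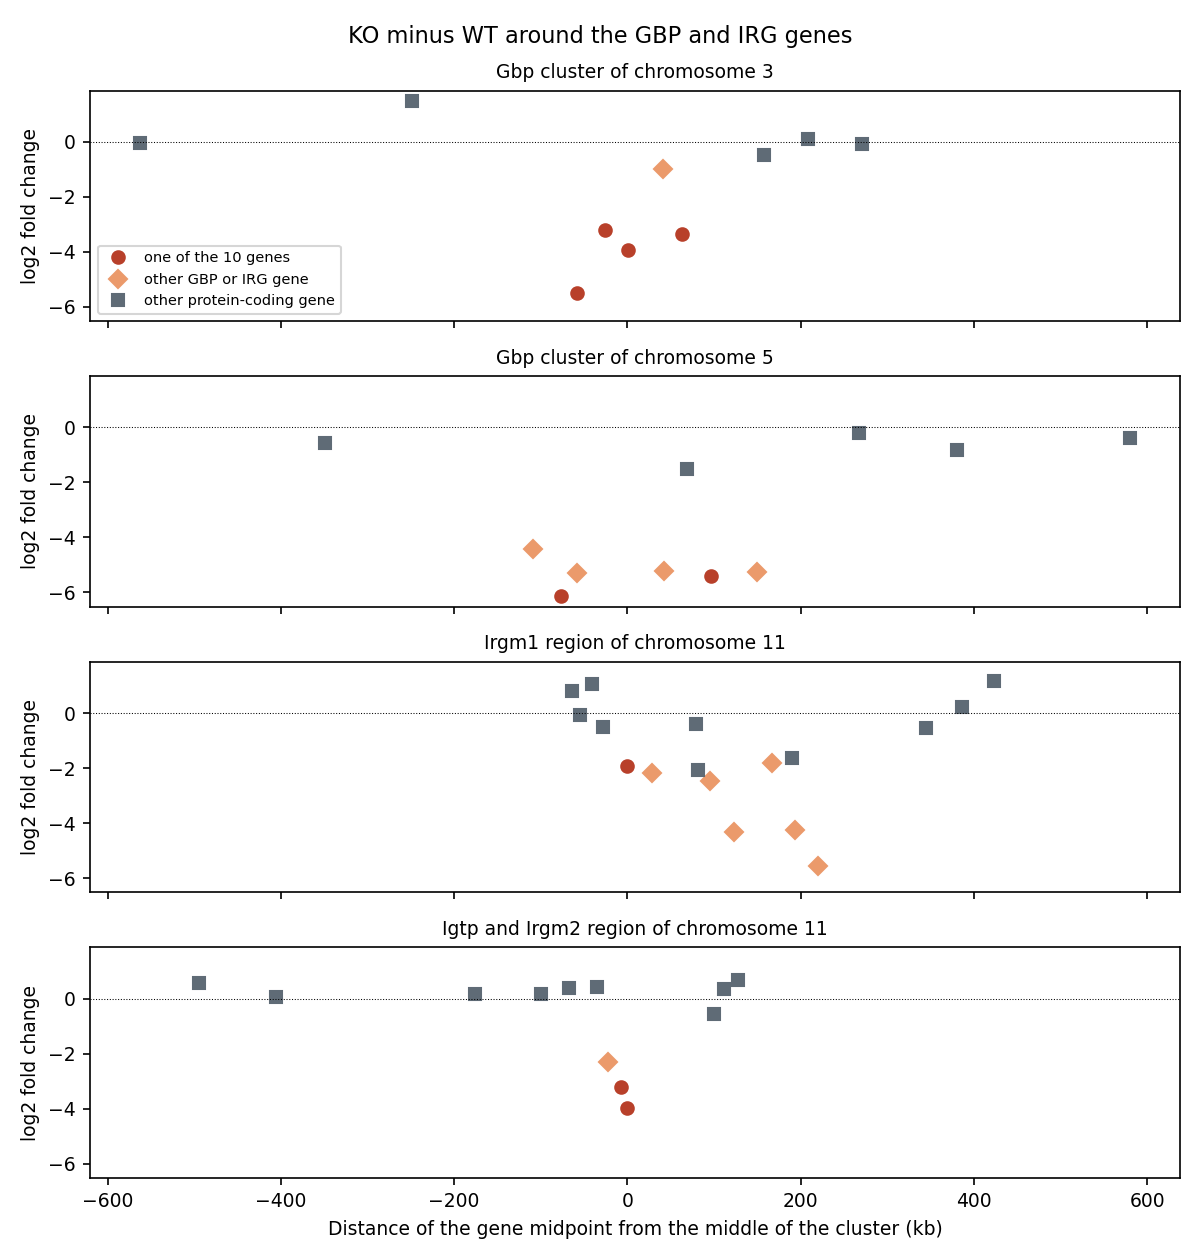
Log2 fold change (KO minus WT) of protein-coding and of GBP or IRG genes against the distance in kb of the gene midpoint from the middle of each of 4 regions. Red points are genes of the 10, orange diamonds other GBP or IRG genes and grey squares other protein-coding genes, whose median is -0.05; 3 of these lie below -1 (Gm43302, Gm12185 and Olfr56).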

How the data were processed

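The authors sequenced total RNA of 4 astrocyte cultures by paired-end RNA-seq and mapped it to mm10. The aligner, the counting program and the annotation are not given in the sources used here. The authors deposited 1 table of signal values, called FPKM in its name, which were read counts over a size factor: in each library 100.0% were whole multiples of 1 read (tolerance 0.01), from which whole reads were recovered. The deposited group means, log2 fold changes and p-values were not used.

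limma 3.58.1 (R 4.3.3, eBayes with a trend, no block) was fitted to log2(normalized count + 1) over 22094 genes whose mean was 1 or more, and p-values were adjusted by Benjamini-Hochberg. This planned test was kept although the unit proved not to be FPKM. The recovered reads went into edgeR 4.0.16 and DESeq2 1.42.0. FPKM was calculated from deposited gene lengths and reads on genes. Scripts were tested on simulated data. An exact permutation test with 2 libraries against 2 has a smallest two-sided p of 0.33, so none was run.

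The members and gene lists were chosen with earlier results of these data known. Genes named are the members, list genes, Tet1, sex-linked genes and the 10 nearest profiles; neighbours and Lgals3bp were named after their values were seen. The values of 1 listed gene are not reported here. Motifs were searched in RefSeq promoter windows (GRCm38.p6). Shared stretches and overlaps come from GENCODE M21, in which 25367 of the 25393 identifiers were found. Alternatives were pseudocounts of 0.1 and 5, a mean filter of 10 or none, scaling to equal sums, a quantile normalization, a variance prior without trend, a replicate block, each library left out, edgeR, DESeq2 and FPKM. Depth was 18749610 to 22673555 reads, and 3 reads correspond to 2.70 to 3.21 normalized counts.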

Additional observations from a re-analysis of the deposited data

How the results depend on the processing

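Limits of the comparison lie in 2 libraries per genotype, in the sex composition that moves with genotype, and in low KO counts of Gbp9 and Iigp1. Of 15 alternatives to the count of 0 genes called by limma, 13 also gave 0; DESeq2 called 1088, and limma on FPKM, an alternative chosen after seeing the data, called 2 (Isg15 and Lgals3bp). The replicate block gave 0 calls, with 2583 genes at an unadjusted p under 0.05 against 3032; deviations of libraries with the same number had a correlation of -0.084, so the numbers were not taken as pairs. Quantile normalization moved the median of all genes from -0.07 to 0.08 and the lower share of genes at an unadjusted p under 0.05 from 66.9% to 51.3%.

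The count of 10 members lower without overlap held under equal sums and quantile normalization. Leaving out a library cannot reduce that count, so those settings say nothing about it. The median log2 fold change of the members ran from -4.27 to -3.77 with a library left out and from -4.01 to -3.87 under the other alternatives. Leaving out a library or changing the pseudocount cannot change the sign for a gene without overlap. In this balanced design the replicate block returns the same log2 fold change, and these settings are counted in what follows. Of 120 values of single members under the alternatives, 110 lay within 1 SE of the value reported, 10 moved further and 0 changed sign. Those that moved were Irgm2, Iigp1, Gbp9 and Gbp7 without either KO library and Gbp6 without either WT library; Irgm2 ran from -4.53 to -3.44 and Gbp6 from -6.14 to -4.64. Without 1 library, the fold of Gbp9 ran from 11.6 to 425 and that of Gbp7 from 3.36 to 24.8, lowest without KO 1 and highest without KO 2.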
